A study of Homo sapiens with 4 samples.

Results

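The messenger RNAs of the proteasome were followed across 4 cultures of human colon adenocarcinoma cells, each read on 1 Illumina bead array. The members were the genes whose platform symbol is PSMA, PSMB, PSMC, PSMD or PSME with a number. PSMB8, PSMB9, PSMC3IP and pseudogenes were left out, and so were PSMD6-AS2 and PSME3IP1, an antisense transcript and a gene for a protein that binds a subunit. This gave 37 genes of 18665 on the array. PSMA7, PSMC5, PSMD7 and PSMD13 are not analysed here. Of the 37, 35 were above background on all 4 arrays, and PSMA8 and PSMB11, known as testis and thymus forms of core subunits, were above background on none.

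The first culture was LvM3b, which served as the control; published work describes these colon cancer cells as selected for their ability to colonize liver. Another LvM3b culture over-expressed miR-483 (miR-483-5p in the title of the series), and another over-expressed miR-551a. The last was labelled Ls-Parental by its title and source name, while its cell line entry reads LvM3b. No culture carried a stated drug, and how the microRNAs were delivered is not stated. Each group was 1 dish and 1 array, so every value below compares single arrays, no p-value was computed, and a difference in the RNA of each cell cannot be told apart from a difference in the share of cells that carry it. Of 10 markers of colon epithelium, 9 were above background on all 4 arrays, and KRT20 was so only in Ls-Parental. Of the other cell types' markers, the fibroblast genes COL3A1 and LUM were above background on the 3 LvM3b arrays only, the monocyte gene CD14 only in Ls-Parental, and PECAM1 only with miR-483. The immune genes PTPRC, CD3E and HLA-DRA, the hepatocyte genes ALB, APOA1 and TTR, VWF, COL1A1 and DCN were above background on no array. The part of such cells in the differences below was not tested.

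The proteasome is the protease that breaks down proteins tagged with ubiquitin. Its core particle is a barrel of alpha rings, which form the gate, and beta rings, which hold the active sites. The regulatory particle caps the barrel. Its base holds a ring of ATPases that unfold the substrate, and its lid removes the ubiquitin chain. Dedicated chaperones assemble the base, and other caps, the PSME activators, can take the place of the regulatory particle. Cells are known to make the subunits in step, in part through the transcription factor NFE2L1, which raises subunit genes when proteasome activity is short.

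Levels are log2 values after background correction and normalization of the 4 arrays together, and differences are on the same log2 scale. Levels of different genes come from different probes and are not compared with each other. A gene was counted as higher or lower by size at 1.2-fold, and the counts over all members are set beside the same share over all genes above background on either array of the pair. Counts by role are read against the same shares. For the 11 members with several detected probes, the 13 pairs of probes show how far probes of a gene disagree on the same arrays. The difference of 1 probe had an SD of 0.11 between probes in each comparison of a microRNA culture with the control. This SD was 0.13 between the microRNA cultures and 0.21 between the lines. Between the lines the median gap within a pair of probes was 0.09, and a pair from PSMD12 had the widest gap. It leaves out error that all probes of an array share and the spread between cultures.

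The comparison of the LvM3b control with Ls-Parental asked how the derived line differs from the parental one. Most proteasome genes were a little higher in LvM3b. Of 35 detected members, 29 were higher by any amount, against 48.1% of 9817 genes, and 6 were lower, against 51.8%. By size, 17 were at least 1.2-fold higher, against 20.6%. PSMD5 and, by its brightest probe, PSMD12 were at least 1.2-fold lower, against 23.0%. Of those counted as higher, PSMA2, PSMA3, PSMA4, PSMA6, PSMB4, PSMD8, PSMD9, PSMD10, PSME1 and PSME2 differed by less than the SD of 0.21. Of those lower, PSMB7, PSMB10, PSMC3 and PSMD4 did too. The median difference of the members was 0.26, and that of all genes was -0.01. No member reached 2-fold, a size that 3.07% of genes reached upward and 2.74% downward. With the authors' own scaling, 33 of 35 members were higher, against 64.6% of genes, and the median was 0.46, against 0.10 for all genes.

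All 3 LvM3b cultures lay on the same side for most members. The Ls-Parental level was below all 3 LvM3b levels for 26 of 35 members, against 35.5% of 10095 genes, and above all 3 for 2 members, PSMD5 and PSMD12, against 35.9%. For the other 7 it lay between them. The miR-483 culture had 30 of 35 members higher than Ls-Parental, against 49.9% of genes; 16 were at least 1.2-fold higher and 1 that far lower, against 22.9% and 23.4%, and the median was 0.23. The miR-551a culture had 32 higher, against 50.1%; 19 were at least 1.2-fold higher and none that far lower, against 24.3% and 24.8%, and the median was 0.32. These comparisons share the Ls-Parental array, and the LvM3b cultures are not replicates of each other. Among the 3 LvM3b arrays, the median span from lowest to highest level of a member was 0.15.

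**Figure D1:**
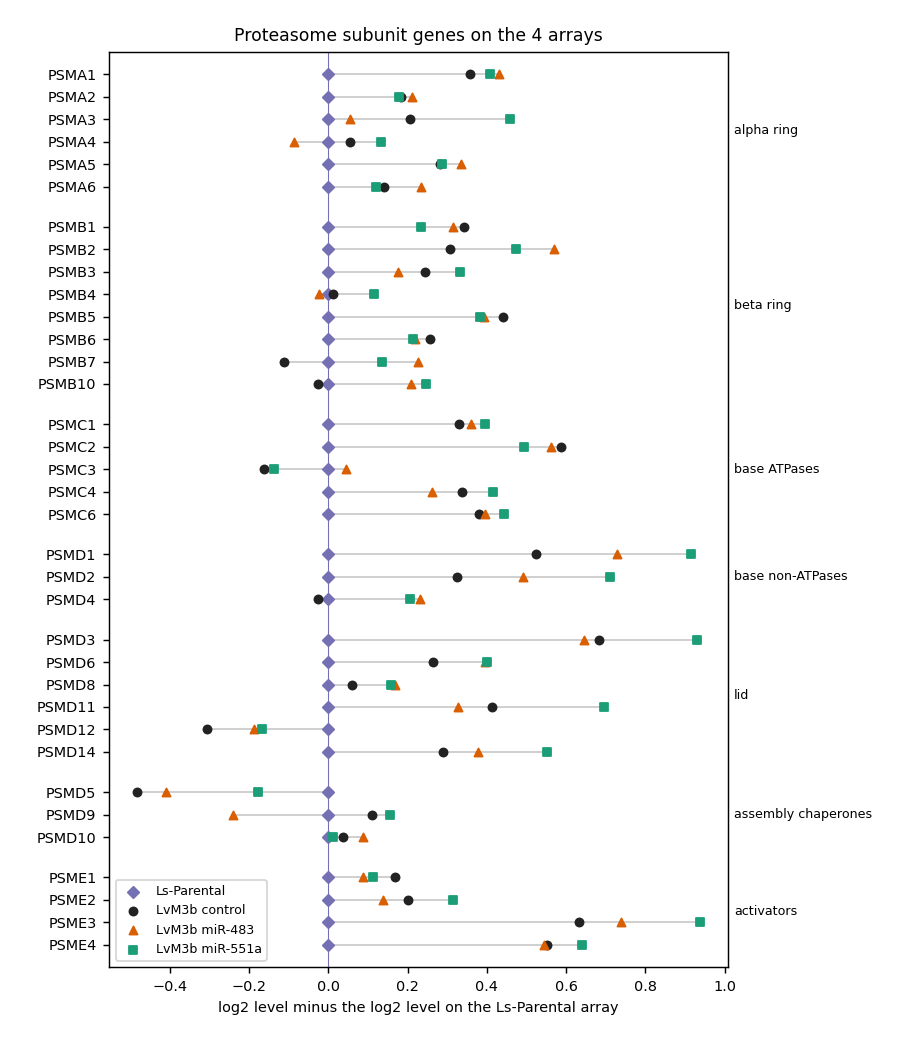
Log2 level of each detected proteasome subunit gene minus its level on the Ls-Parental array, with 1 point for each of the 4 arrays and genes grouped by role. For 26 of 35 genes all 3 LvM3b points lie to the right of Ls-Parental, and for PSMD5 and PSMD12 all 3 lie to the left.

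All 6 detected alpha ring genes were higher in the LvM3b control than in Ls-Parental, against 48.1% of all genes, with a median difference of 0.19 and a range of 0.05 to 0.36. PSMA1 had the largest difference among them, 1.28-fold. The log2 level of PSMA3, an alpha subunit, was 12.72 in the control, 12.57 under miR-483, 12.97 under miR-551a and 12.51 in Ls-Parental. By this probe Ls-Parental was lowest and miR-551a highest. The second probe read 11.72, 11.81, 11.69 and 11.24, with Ls-Parental again lowest and miR-551a the lowest of the LvM3b arrays. PSMA4, another alpha subunit, had levels of 13.14, 13.00, 13.22 and 13.08 in the same order, so its Ls-Parental level lay among the LvM3b levels, but its second probe read 12.20, 12.24, 12.31 and 11.97, with Ls-Parental below all 3. PSMA6 had levels of 14.36, 14.46, 14.34 and 14.22, with Ls-Parental lowest, while its second probe read 12.71, 12.72, 12.74 and 12.75, with Ls-Parental highest by a small margin.

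Of 8 detected beta ring genes, 6 were higher in the LvM3b control, against 48.1% of all genes, and 3 by at least 1.2-fold, against 20.6%, and the median difference was 0.25. The constitutive active sites did not all lie on the same side with the processing used here. The exception, PSMB7, differed by only -0.11, below the SD of 0.21 between probes, and by 0.063 with the authors' scaling. PSMB5, which carries the chymotrypsin-like site, had log2 levels of 12.30 in the control, 12.25 under miR-483, 12.24 under miR-551a and 11.86 in Ls-Parental, so the LvM3b arrays lay close together and the control was 1.36-fold above Ls-Parental. PSMB6, which carries the caspase-like site, had levels of 13.09, 13.05, 13.05 and 12.83 in the same order, with the same arrangement and a difference of 0.26. PSMB7, which carries the trypsin-like site, had levels of 12.81, 13.14, 13.06 and 12.92. Its control level was the lowest of the 4, and both microRNA cultures lay above Ls-Parental.

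PSMB10, the interferon-inducible subunit that replaces PSMB7 in the immunoproteasome, also had its lowest level in the control. Its log2 levels were 10.79 in the control, 11.02 under miR-483, 11.06 under miR-551a and 10.81 in Ls-Parental, so the control and Ls-Parental nearly coincided and both microRNA cultures were higher. The structural subunit PSMB1 had levels of 14.28, 14.25, 14.17 and 13.93, with Ls-Parental lowest. PSMB2, another structural subunit, had levels of 12.23, 12.49, 12.39 and 11.92, also with Ls-Parental lowest. PSMB3 and PSMB4 differed by 0.24 and 0.01 between the control and Ls-Parental. With the authors' scaling the control lay above Ls-Parental for PSMB7 (0.063) and PSMB10 (0.15) too.

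The ATPases of the base had a median difference of 0.34 between the LvM3b control and Ls-Parental, and 4 of 5 were at least 1.2-fold higher in LvM3b, against 20.6% of all genes. PSMC2 had log2 levels of 12.63 in the control, 12.60 under miR-483, 12.53 under miR-551a and 12.04 in Ls-Parental. The LvM3b levels lay close together, and the control was 0.59 above Ls-Parental on the log2 scale. PSMC1, PSMC4 and PSMC6 were 1.26-fold, 1.26-fold and 1.30-fold higher in the control. PSMC4 had levels of 11.16, 11.08, 11.24 and 10.82 in the same order, and its other probes differed by 0.35 and 0.25 between the lines. PSMC3 was the exception, with levels of 10.72, 10.92, 10.74 and 10.88, and its Ls-Parental level lay inside the LvM3b range. With the authors' scaling the control lay 0.020 above Ls-Parental for PSMC3.

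Among the other base subunits, PSMD1 and PSMD2, the large scaffold proteins to which ubiquitin carriers dock, were higher in LvM3b, and PSMD4, a ubiquitin receptor, was not. PSMD1 had log2 levels of 12.04 in the control, 12.24 under miR-483, 12.43 under miR-551a and 11.51 in Ls-Parental, so the control was 1.44-fold above Ls-Parental. PSMD2 had levels of 11.22, 11.39, 11.61 and 10.90, a difference of 1.25-fold. In both genes Ls-Parental was lowest and the miR-551a array highest. PSMD4 had levels of 11.50, 11.76, 11.73 and 11.53, so by this probe the control and Ls-Parental nearly coincided below the microRNA cultures. Its second probe read 11.06, 11.13, 11.03 and 11.07, with the miR-551a array lowest.

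In the lid, 5 of 6 genes were higher in the LvM3b control, against 48.1% of all genes, and 4 by at least 1.2-fold, against 20.6%. PSMD3, a lid scaffold subunit, had a larger difference than any other member with the processing used here, but PSME3 exceeded it without background correction (0.60 against 0.53) and with the authors' scaling (0.76 against 0.60). Its log2 level was 8.48 in the control, 8.45 under miR-483, 8.73 under miR-551a and 7.80 in Ls-Parental, and the control was 1.61-fold above Ls-Parental. PSMD11, another scaffold subunit, had levels of 7.70, 7.61, 7.98 and 7.29, a difference of 1.33-fold. PSMD14, the deubiquitinase of the lid, was 1.22-fold higher and PSMD8 1.04-fold higher. PSMD6 had levels of 12.95, 13.08, 13.09 and 12.69, and its control level was 0.26 above Ls-Parental, but its second probe differed by -0.15.

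PSMD12, a lid subunit, gave opposite answers by probe. Its brightest probe had log2 levels of 13.00 in the control, 13.11 under miR-483, 13.13 under miR-551a and 13.30 in Ls-Parental, and differed by -0.31 between the lines. The other detected probe had levels of 11.82, 11.83, 11.84 and 11.29, with all 3 LvM3b arrays nearly equal and above Ls-Parental, and differed by 0.53. With that probe PSMD12 would join the members that were higher in LvM3b, which leaves its direction undecided. Of the 13 pairs of probes, 9 had the same sign between the lines, and pairs from PSMD6, PSMD10, PSMD12 and PSMA6 did not.

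**Figure D2:**
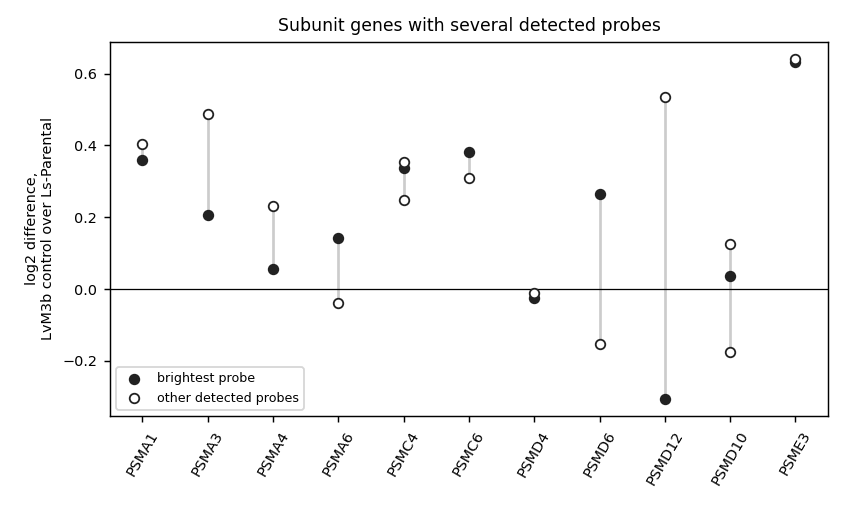
Log2 difference between the LvM3b control and Ls-Parental for each detected probe of the 11 subunit genes with several detected probes. Filled points are the probe used and open points the others; PSMD12 (-0.31 and 0.53) has the widest gap, while the probes of PSME3 (0.63 and 0.64) nearly coincide.

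The assembly chaperones had a median difference of 0.04 between the lines, which was -0.015 with median scaling. PSMD5 had log2 levels of 7.68 in the control, 7.76 under miR-483, 7.99 under miR-551a and 8.16 in Ls-Parental. It was 1.40-fold lower in the control than in Ls-Parental, the furthest of any member in that direction, and lower on all 3 LvM3b arrays. PSMD9 had levels of 6.86, 6.51, 6.90 and 6.75, which lie close to the lowest detected level of any probe, 6.38 for the control and 6.15 for miR-483. PSMD10, also called gankyrin, had levels of 11.62, 11.67, 11.60 and 11.58, and its 3 detected probes differed by 0.04, 0.13 and -0.18 between the lines.

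All 4 activator genes were higher in the LvM3b control than in Ls-Parental, against 48.1% of all genes, with a median difference of 0.38. PSME3, which forms a nuclear activator, had log2 levels of 10.93 in the control, 11.03 under miR-483, 11.23 under miR-551a and 10.29 in Ls-Parental, a difference of 1.55-fold. PSME4, a large single-chain activator, had levels of 11.88, 11.87, 11.97 and 11.33, a difference of 1.47-fold. For both, the 3 LvM3b levels stood well above Ls-Parental. The interferon-inducible pair differed less. PSME1 had levels of 13.64, 13.55, 13.58 and 13.47, and PSME2 had levels of 11.77, 11.71, 11.89 and 11.57, differences of 1.12-fold and 1.15-fold.

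Since most members lay on the same side between the lines, their promoters were searched for short motifs in the 250 bases before the start of the gene, on both strands, in RefSeq sequences of GRCh38.p14. A match is a description of letters and not of a bound site. Of the 37 members, 33 were matched by symbol. Their shares are set against all RefSeq promoter windows, which were not limited to genes on the array or above background. The median GC content was 60.8% in member windows and 58% in all windows. The part of these points in the motif shares was not tested. The core of the antioxidant response element, TGACNNNGC, which NFE2L1 and NFE2L2 are known to bind, was in 9 of 38 member windows, or 23.7%, against 10.9% of 35116 windows. These were the windows of PSMA4, PSMB3, PSMD3, PSMD5, PSMD9, PSMD12, PSME1, PSME2 and PSME4. PSMD3, which was higher in LvM3b, and PSMD5, which was lower, both hold it. The box CCAAT was in 39.5% of member windows and 32.0% of all, and the box GGGCGG in 57.9% and 42.6%. The heat shock element core, GAANNTTC, was in 0 of 38 member windows and in 5.78% of all. The windows below show where the TGACNNNGC match lies in PSMD3, PSMB3, PSME4 and PSMD5; capitals mark it, and in PSME4 it reads on the opposite strand. They were chosen after the values were seen. The first base of the match lies 37, 104, 34 and 134 bases before the start, in that order.
PSMD3 promoter, chr17:39980557-39980806, plus strand: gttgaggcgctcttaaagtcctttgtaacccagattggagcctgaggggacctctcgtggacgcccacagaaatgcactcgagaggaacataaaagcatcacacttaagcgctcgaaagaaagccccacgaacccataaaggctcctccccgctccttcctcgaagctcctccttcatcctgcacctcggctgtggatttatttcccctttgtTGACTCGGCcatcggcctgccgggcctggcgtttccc
PSMB3 promoter, chr17:38752491-38752740, plus strand: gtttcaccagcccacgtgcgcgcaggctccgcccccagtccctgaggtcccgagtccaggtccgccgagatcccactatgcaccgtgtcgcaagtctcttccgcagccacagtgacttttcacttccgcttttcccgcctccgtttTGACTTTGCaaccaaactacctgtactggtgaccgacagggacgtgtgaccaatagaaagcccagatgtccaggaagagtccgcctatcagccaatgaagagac
PSME4 promoter, chr2:53970994-53971243, minus strand: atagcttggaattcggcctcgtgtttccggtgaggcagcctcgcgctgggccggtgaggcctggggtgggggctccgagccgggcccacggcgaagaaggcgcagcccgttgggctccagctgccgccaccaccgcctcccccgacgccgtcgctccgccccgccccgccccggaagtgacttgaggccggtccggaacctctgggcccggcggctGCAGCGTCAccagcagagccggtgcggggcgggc
PSMD5 promoter, chr9:120842923-120843172, minus strand: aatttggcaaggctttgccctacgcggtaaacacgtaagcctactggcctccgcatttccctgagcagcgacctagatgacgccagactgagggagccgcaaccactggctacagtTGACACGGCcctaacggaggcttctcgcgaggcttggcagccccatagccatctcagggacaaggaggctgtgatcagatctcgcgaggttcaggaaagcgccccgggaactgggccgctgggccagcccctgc

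The comparison of miR-483 with the control asked which messenger RNAs were lower or higher when LvM3b cells carried extra miR-483. The proteasome genes differed little. Of 35 members 20 were higher, against 51.5% of 9673 genes, and 15 lower, against 48.4%. PSMB7 alone was at least 1.2-fold higher, against 10.8% of genes, and PSMD9 alone at least 1.2-fold lower, against 10.5%. The median of the members was 0.03, and that of all genes 0.01. No member reached 2-fold, against 0.331% of genes upward and 0.310% downward. These shares are near or below those of all genes.

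PSMB7, whose levels are given above, was 1.26-fold higher with miR-483, while the other constitutive active-site genes PSMB5 and PSMB6 differed by -0.05 and -0.04. PSMB2 and PSMD4 came next, with differences of 0.26 and 0.26; the second probe of PSMD4 differed by 0.07. PSMD9 was 1.28-fold lower, near background, and without background correction it differed by -0.19. PSMA3 and PSMA4 differed by -0.15 and -0.14, but their second probes differed by 0.09 and 0.04. The 3 probes of PSMC4 ranged from -0.07 to 0.24. By role, the medians were 0.04 for the alpha ring, -0.03 for the beta ring, 0.01 for the ATPases, 0.20 for the other base subunits, 0.10 for the lid, 0.05 for the assembly chaperones and -0.04 for the activators. Each of PSMD1, PSMD2 and PSMD4, the base subunits that are no ATPases, was higher.

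The comparison of miR-551a with the control asked the same of miR-551a, whose mature RNA is shown here because the culture carries more of it. Capitals mark the seed, bases 2 to 8, from RefSeq on GRCh38.p14.
miR-551a, chr1:3560710-3560730, minus strand: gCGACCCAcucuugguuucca
More of the proteasome genes lay on the higher side here. Of 35 members 27 were higher, against 51.0% of 9619 genes, and 8 lower, against 48.8%. The members at least 1.2-fold higher were 7, against 13.3%, and none was that far lower, against 12.4%. The median of the members was 0.09, and that of all genes 0.01. None reached 2-fold, against 0.218% upward and 0.364% downward. Without background correction 3 members, or 8.57%, were at least 1.2-fold higher, against 8.31% of genes, so the count by size did not stand apart from all genes there.

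With miR-551a, 13 of 14 detected base and lid genes of the regulatory particle were higher by the probes used, with a median of 0.14. Of 14 core genes 9 were higher, with a median of 0.06, against 51.0% of all genes. The difference between the particles was not tested. The second probes of PSMD4 and PSMC6 differed by -0.03 and -0.02, while the other detected probes of PSMC4, PSMD6 and PSMD12 were higher too. Of the 13 pairs of probes, 8 had the same sign in this comparison. PSMD1 and PSMD2 were furthest, each 1.31-fold higher than in the control, and neither has a second probe. PSMD5 was 1.24-fold higher and PSME3 1.24-fold higher, and the second probe of PSME3 differed by 0.34. Without background correction PSMD5 differed by 0.22, and with the authors' scaling by 0.21, both below the 1.2-fold size. PSME3 stayed above that size, at 0.29 and 0.28 in the same order. PSMD11, PSMD14 and PSMB10 had log2 differences of 0.28, 0.26 and 0.27. All 6 lid genes were higher, with a median of 0.19. PSMB1, PSMC2 and PSMB5 were furthest lower, with differences of -0.11, -0.09 and -0.06, sizes near or below the SD between probes of a gene. By role, the medians were 0.03 for the alpha ring (-0.0073 with the authors' scaling), 0.10 for the beta ring, 0.06 for the ATPases, 0.39 for the other base subunits, 0.04 for the assembly chaperones and 0.10 for the activators.

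**Figure D3:**
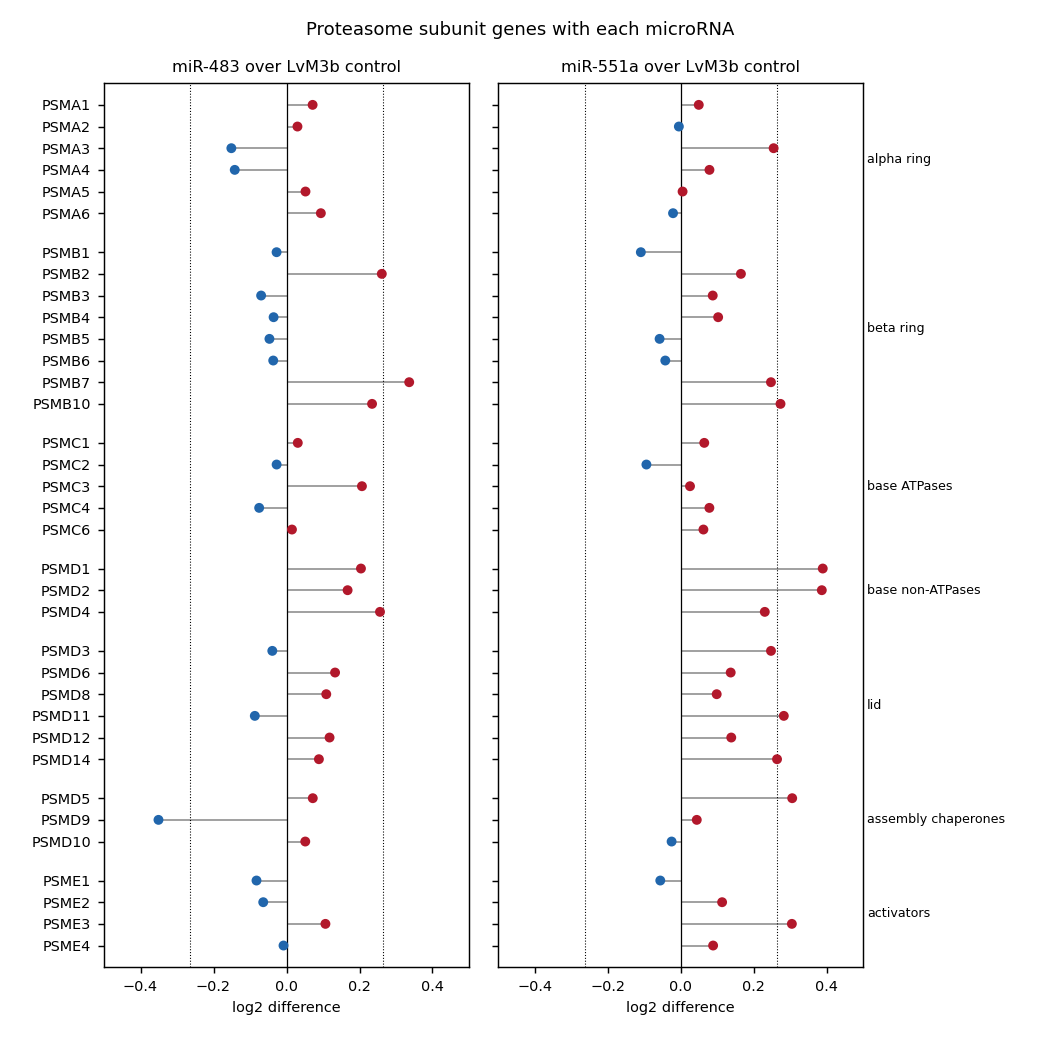
Log2 difference of each detected proteasome subunit gene between each microRNA culture and the LvM3b control, grouped by role, with dotted lines at 1.2-fold. With miR-483 only PSMB7 and PSMD9 lie beyond the lines, and with miR-551a 7 genes lie beyond the upper line.

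Both of these comparisons use the same control array. Side by side, 17 members were higher than the control with both microRNAs, 5 lower with both and 13 on opposite sides. The shared array pulls both differences of any gene to the same side. These counts were not made over all genes, so they are not read as a shared difference of the members. Set directly against each other, the miR-551a and miR-483 arrays had 21 of 35 members higher with miR-551a, against 49.9% of 9753 genes, and a median of 0.03, against 0.00. Higher by at least 1.2-fold with miR-551a were 4 members, against 8.97%, and none was that far lower, against 9.22%. The 4 were PSMA3 (1.32-fold), PSMD9 (1.31-fold), PSMD11 (1.29-fold) and PSMD3 (1.22-fold). None reached 2-fold, against 0.0923% upward and 0.277% downward. The second probe of PSMA3 differed by -0.12, and PSMD9 lay near background. PSMC3, PSMA6 and PSMB2 were furthest lower with miR-551a, by -0.18, -0.12 and -0.10. The 3 probes of PSMD10 ranged from -0.22 to 0.14.

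**Figure D4:**
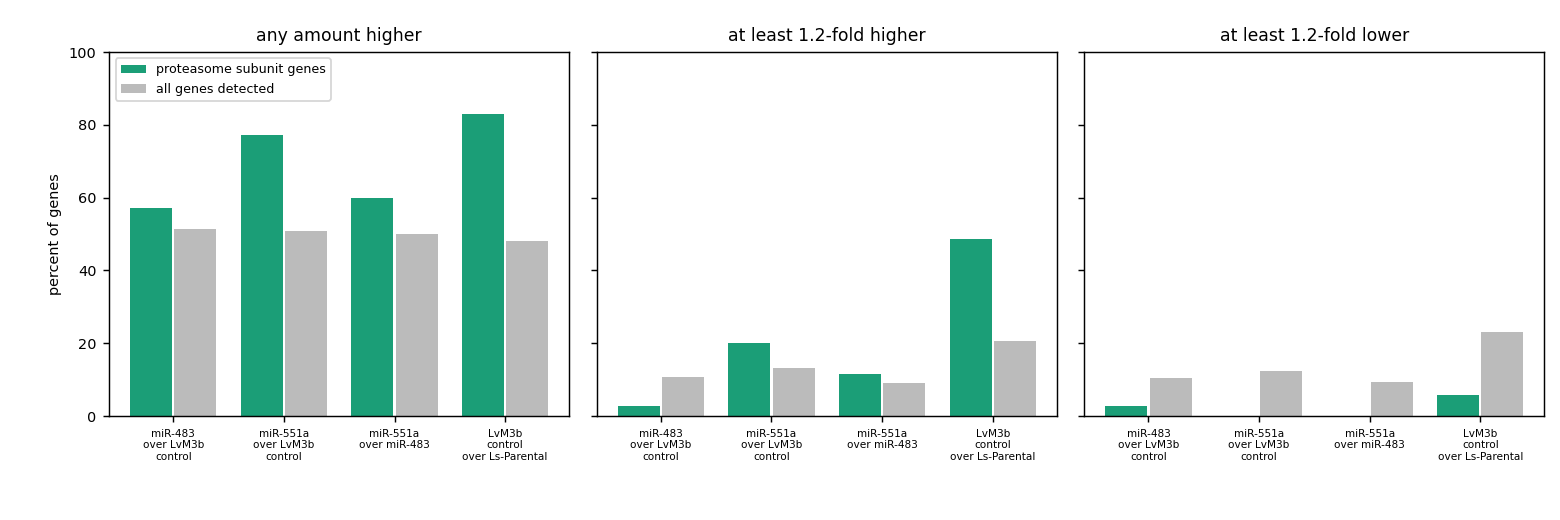
Percent of the 35 detected proteasome subunit genes and of all genes detected that were higher by any amount, at least 1.2-fold higher or at least 1.2-fold lower in each comparison. For the LvM3b control over Ls-Parental, 48.6% of members and 20.6% of genes were at least 1.2-fold higher.

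Other genes of the ubiquitin and proteasome pathway, from a list of 34 of which 29 were named on the array and 27 detected, were split between the directions. Between the LvM3b control and Ls-Parental 15 of 26 were higher, against 48.1% of all genes, and 11 lower, against 51.8%, with a median of 0.02, or 0.21 with the authors' scaling; 5 were at least 1.2-fold higher and 3 at least 1.2-fold lower, against 20.6% and 23.0%, so neither count stood above the share of all genes. NFE2L1, the factor that raises subunit genes, had log2 levels of 9.54 in the control, 9.17 under miR-483, 9.27 under miR-551a and 9.93 in Ls-Parental. NFE2L1 was highest in Ls-Parental. It differed by -0.39 between the lines, but by -0.21 with the authors' scaling, below the 1.2-fold size. It was the member of this list furthest lower with each microRNA (-0.37 and -0.27). The part of NFE2L1 in the levels of the subunit genes was not tested. POMP, the maturation factor of the core particle, differed by 0.30 between the lines, while 3 of the 5 detected assembly factors of the list were lower in LvM3b (PSMG2 by -0.04, PSMG3 by -0.11 and PAAF1 by -0.11) and their median was -0.04. USP14, a deubiquitinase bound to the base, differed by 0.37. POMP and USP14 were picked after their values were seen.

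Genes that deliver substrates differed in both directions. UFD1 and VCP, parts of the machine that extracts ubiquitin-tagged proteins, were 1.48-fold and 1.37-fold higher in the LvM3b control than in Ls-Parental. With the mean of its detected probes UFD1 differed by 0.25 on the log2 scale, below the 1.2-fold size. SQSTM1, also called p62, a ubiquitin-binding receptor of autophagy, had log2 levels of 11.31 in the control, 11.94 under miR-483, 12.23 under miR-551a and 11.97 in Ls-Parental. The control was lowest, by 1.55-fold against miR-483, 1.88-fold against miR-551a and 1.58-fold against Ls-Parental. With the authors' scaling its log2 difference from Ls-Parental was -0.45, against -0.66 with the processing used here. UBQLN2, a shuttle that carries tagged proteins to the proteasome, was 1.23-fold higher with miR-483 and 1.39-fold with miR-551a. ZFAND2A, a stress-induced proteasome-associated gene, was 1.34-fold lower in the control than in Ls-Parental. VCP with miR-483 (-0.15) and PSMG3, a core assembly chaperone, with miR-551a (-0.19) were the next furthest lower. Between the microRNA cultures, RAD23B, another shuttle, was 1.26-fold and SQSTM1 1.22-fold higher with miR-551a, and ECPAS, a proteasome-associated scaffold, was 1.35-fold and UBQLN4 1.15-fold lower. ECPAS was above background only on these arrays, with log2 levels of 6.92 under miR-483 and 6.48 under miR-551a, and its difference was -0.24 without background correction and -0.26 with the authors' scaling, both below the 1.2-fold size.

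**Figure D5:**
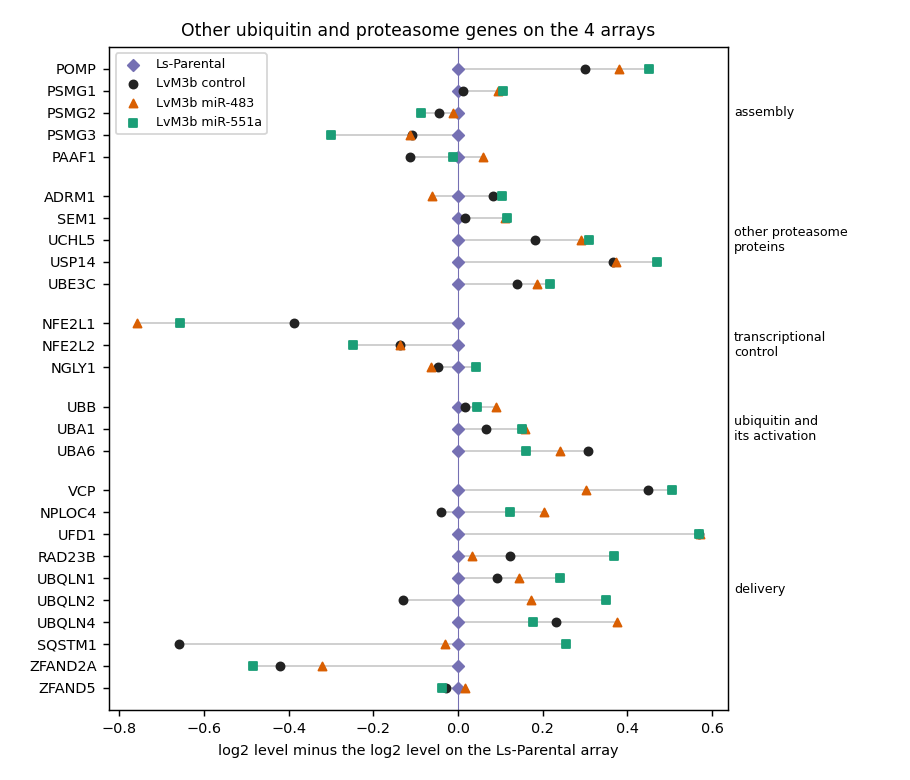
Log2 level of each of the other ubiquitin and proteasome genes detected on all 4 arrays minus its level on the Ls-Parental array, with 1 point for each array. NFE2L1 lies to the left on all 3 LvM3b arrays, and SQSTM1 is spread from -0.66 in the control to 0.25 with miR-551a.

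Other large protein machines give the members a setting. Between the LvM3b control and Ls-Parental, 7 of 8 genes of the TCP1 folding ring were higher, against 48.1% of all genes, with a median of 0.19, and 9 of 10 cytosolic heat shock chaperone genes, with a median of 0.34. Of 65 cytosolic ribosomal protein genes, 29 were higher, against the same 48.1%, with a median of -0.02, which was 0.055 with the authors' scaling. With miR-551a the medians over the control were 0.12, 0.40 and -0.06, against 0.09 for the proteasome genes. With miR-483 they were 0.05, 0.18 and -0.05, against 0.03. The proteasome genes thus lay above the ribosomal protein genes and below the heat shock chaperones in each of these comparisons, an order of medians that was not tested.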

How the data were processed

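RNA of 4 cultures was labelled with biotin and hybridised to Illumina bead arrays, per the labels' protocols. Per the file headers, the authors deposited for each array a signal, a linear intensity per probe with no normalization between arrays, and a Detection column, a fraction from 0 to 1 that is high for bright probes; 1 minus it served as the detection p. A second deposited table of intensity values equals the first times 1 factor per array (1.00, 1.03, 1.11 and 1.09), found from the values. Scanner and software were not given in the sources used here. The arrays' median signals were 104 to 115, and 13861 to 14628 of 48803 probes were detected at a detection p under 0.01; the number of arrays limits the precision.

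The signals were taken through limma 3.58.1 (R 4.3.3), with normexp correction from the detection p with an offset of 16, quantile normalization and log2 transformation. Genes were named from the platform annotation, updated by gene number through RefSeq of GRCh38.p14 (27541 of 27591 listed probes matched; 13 probes had several genes and 21212 of all probes no name). Each gene was read from its brightest probe. No tests were made, as each group was 1 array. The steps were tested on simulated arrays.

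Named members were the constitutive active sites, PSMB10, the activators, the 3 furthest at each end of each comparison and genes whose probes disagree in sign by at least 0.3. Of the related list, the 2 furthest at each end were named; POMP, USP14, PSMG2, PAAF1, and members given by difference only, were added after their values were seen. Members and lists were chosen with earlier results of these data known. Alternatives were no background correction, the authors' scaled values, median scaling, an offset of 50, other detection filters and other probe choices.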

Additional observations from a re-analysis of the deposited data

How the results depend on the processing

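Every comparison rests on 1 array per culture, so the spread between cultures is unknown. No paired analysis was possible because each group has 1 array. Of 558 summary values under 9 other settings, 499 kept within 1.5 times (counts) or within a set spread (medians). That spread was the SD between probes divided by the square root of the number of genes. It was 0.018 for the members with miR-483, so small shifts of a median also counted as moved. The genes with a mean level of at least 10 and the second brightest probe, 2 of the settings, were chosen after seeing the data. Some of the 499 could not change, so this total overstates how far the results were put to the test. All 35 detected members were above background on every array, so the filter for genes detected on every array could not move their values. Second probes were taken for the members only, which left the other lists as they were. The authors' scaled values moved 22 of 62 summary values. Between the LvM3b control and Ls-Parental the members' median stayed above 0 in each setting run. It was 0.46 with the authors' scaled values and 0.36 with median scaling, and the count at least 1.2-fold lower became 1 with these, with the mean of detected probes, with bright genes and with second probes. The count of members whose Ls-Parental level lay above all LvM3b levels became 1 with the authors' scaled values, the mean of detected probes and bright genes. With miR-551a, 3 members were at least 1.2-fold higher without background correction and 3 with the authors' scaled values. In both settings these were PSMD1, PSMD2 and PSME3, while PSMD5 and PSMB10 fell below that size. With miR-483, the count at least 1.2-fold lower became 0 without background correction, with the authors' scaled values and with bright genes, the count higher became 2 with the authors' scaled values, median scaling and second probes, and the median became 0.0514 with bright genes. Between the microRNA cultures, the count higher became 2 without background correction, 1 with the authors' scaled values and 1 with bright genes, and the median became 0.0095 with the authors' scaled values. By the mean of probes PSMD12 differed by 0.11 between the lines and by its second probe by 0.53; second probes also turned PSMD6 to -0.15 there and PSMA3 to -0.12 between the microRNA cultures. Between the lines, the authors' scaled values gave role medians of 0.36 (alpha ring), 0.46 (beta ring), 0.55 (ATPases), 0.49 (other base subunits), 0.40 (lid) and 0.55 (activators), and medians of 0.21 (related list), 0.38 (TCP1 ring), 0.50 (heat shock chaperones) and 0.055 (ribosomal proteins). Median scaling gave 0.36 (beta ring), 0.45 (ATPases), 0.10 (related list), 0.27 (TCP1 ring) and -0.049 (ribosomal proteins). The related list gave 0.066 with no detection filter and 0.061 with the mean of probes, ribosomal proteins 0.015 with the mean of probes, and the lid 0.16 with bright genes. With miR-551a, the lid gave 0.15 with the authors' scaled values, 0.14 with bright genes and 0.25 with second probes, the related list 0.12 with the mean of probes, and ribosomal proteins -0.074 with the authors' scaled values, -0.075 with median scaling and -0.038 with the mean of probes. With miR-483, the lid gave 0.047 with second probes, the related list 0.073 with no detection filter, and ribosomal proteins -0.033 with the authors' scaled values and -0.0072 with the mean of probes. Between the microRNA cultures, the assembly chaperones gave 0.15 with the authors' scaled values and -0.076 with bright genes, the lid 0.012 with bright genes and 0.16 with second probes, the ATPases -0.053 with second probes, and ribosomal proteins -0.026 with bright genes. The cause of these shifts was not tested. PSMD9 and other dim probes near the lowest detected level are the least certain.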

Other observations

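By the RefSeq annotation of GRCh38.p14, the 35 detected members lie on 14 chromosomes. Over all 35, 29 were higher in the LvM3b control than in Ls-Parental, with a median difference of 0.26. The 7 on chromosome 14 (PSMA3, PSMA6, PSMB5, PSMC1, PSMC6, PSME1 and PSME2) were all higher in the LvM3b control than in Ls-Parental, with a median difference of 0.21, while 52.0% of the 323 detected genes of that chromosome were higher, with a median of 0.01. The second probe of PSMA6 differed by -0.04. Of the 6 on chromosome 17, 5 were higher, with a median of 0.34, against 45.4% and a median of -0.03 for its 581 genes. All 3 members on chromosome 2 and both on chromosome 7 were higher too, with medians of 0.53 and 0.39. Both members on chromosome 9, PSMB7 and PSMD5, were lower, with a median of -0.30, while 48.7% of its 417 genes were higher, with a median of -0.01. PSMB7 differed by -0.11, below the SD between probes, and by 0.063 with the authors' scaling. On chromosome 14, PSMA3, PSMA6, PSME1 and PSME2 also differed by less than that SD.

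PSME3IP1, which shares the prefix of the members but encodes a protein that binds PSME3, had log2 levels of 7.06 in the control, 7.25 under miR-483, 7.58 under miR-551a and 7.10 in Ls-Parental. It was highest with miR-551a, as were 18 of 35 detected members, PSME3 among them, and 24.8% of 10095 genes. Between the lines PSME3IP1 differed by -0.04 and PSME3 by 0.63. PSMD6-AS2 was above background on no array.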
